A study of Bos taurus with 20 samples.

Results

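STAT2, STAT3, STAT4, STAT5A, STAT5B and STAT6, genes of the family of signal transducers and activators of transcription, were chosen by symbol, by a rule that uses no measured value, although earlier results of these data were known when the family was chosen. They make up 6 of the 37063 genes in the count tables, where they were found by the Entrez identifiers 511023, 508541, 515988, 282375, 282376 and 353105, in that order. Maternal whole blood was collected at day 63 of gestation from 20 pregnant recipient cows, each carrying a female beef calf from an embryo produced in vitro with X-sorted semen, and RNA that the labels give as polyadenylated was sequenced with 1 library per cow. All cows formed 1 group with no treatment, and the variable of interest was the calf's birth weight (BW), which was 45.0 ± 10.1 kg (SD, n = 20). Each cow is named here as the recipient of a calf of a given weight, no weight occurring more than once. In the study's methods the recipients are described both as lactating dairy cows and as Angus, so their breed is not given here. Total counts were between 24632077 and 39892111 per cow, with a median of 33412740, and every cow is a separate animal.

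STAT proteins carry signals from cytokine receptors to the nucleus. A bound cytokine activates Janus kinases (JAKs) on its receptor, the kinases phosphorylate STAT proteins, and paired STAT proteins enter the nucleus and turn on genes, among them the SOCS genes whose products shut the signal off. This activation happens on the protein, so the RNA level of a STAT gene does not measure it. In blood, STAT2 is known for type I interferon signals, STAT3 for interleukin 6, interleukin 10 and granulocyte colony-stimulating factor, STAT4 for interleukin 12, STAT5A and STAT5B for interleukin 2, growth hormone and prolactin, and STAT6 for interleukin 4.

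All 6 genes were read in every cow, with 2134 to 13132 counts per library, and all 6 varied between cows by less than the median gene did. Levels are given as CPM, the counts of a gene scaled to library size by TMM normalization, which are not divided by transcript length, so the genes are not ranked against each other. The SD of log2 CPM across the 20 cows had a median of 0.23 over the 16269 genes that reached 10 counts in 5 or more cows.

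STAT5B was the steadiest of the family, at 225 ± 10.9 CPM (SD, n = 20). Its lowest value was 205 CPM in the recipient of the 43 kg calf, its median 224 and its highest 247 in the recipient of the 50 kg calf. The SD of its log2 CPM was 0.070, and only 2.23% of the genes had a lower one. STAT5A, its close relative, had 130.0 ± 8.61 CPM (SD, n = 20), from 115 in the recipient of the 49.5 kg calf through a median of 131.5 to 149 in the recipient of the 30 kg calf. The SD of log2 CPM of STAT5A was 0.096, lower than in all but 9.71% of genes. The STAT5 genes are similar in sequence and the sources used here do not give the handling of reads that match more than 1 gene, so their separate values are uncertain to that extent.

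STAT3 and STAT6 were about as steady as STAT5A. STAT3 had 304 ± 21.0 CPM (SD, n = 20), with a lowest value of 261.5 in the recipient of the 45 kg calf, a median of 313 and a highest value of 344 in the recipient of the 53 kg calf. STAT6 had 283 ± 18.98 CPM (SD, n = 20), with a lowest value of 246 in the recipient of the 41.5 kg calf, a median of 280.3 and a highest value of 325 in the recipient of the 50 kg calf. The recipients at the top of STAT3 and STAT6 were followed by values of 326 and 306 CPM, so neither stood far from the others.

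STAT2 and STAT4 varied most within the family, with SDs of log2 CPM of 0.18 and 0.17, against which 41.1% and 36.4% of genes had lower ones. STAT2 had 196.5 ± 26.4 CPM (SD, n = 20), from 158 in the recipient of the 72.5 kg calf through a median of 190.3 to 277 in the recipient of the 30 kg calf. The recipient of the 30 kg calf stood alone, since the next highest value of STAT2 was 231 in the recipient of the 50 kg calf. STAT4 had 96.6 ± 10.8 CPM (SD, n = 20), from 76.8 in the recipient of the 36 kg calf through a median of 97.5 to 114 in the recipient of the 47.4 kg calf. No cow stood alone in STAT4, as the next values at either end were 76.9 and 114 CPM.

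**Figure D1:**
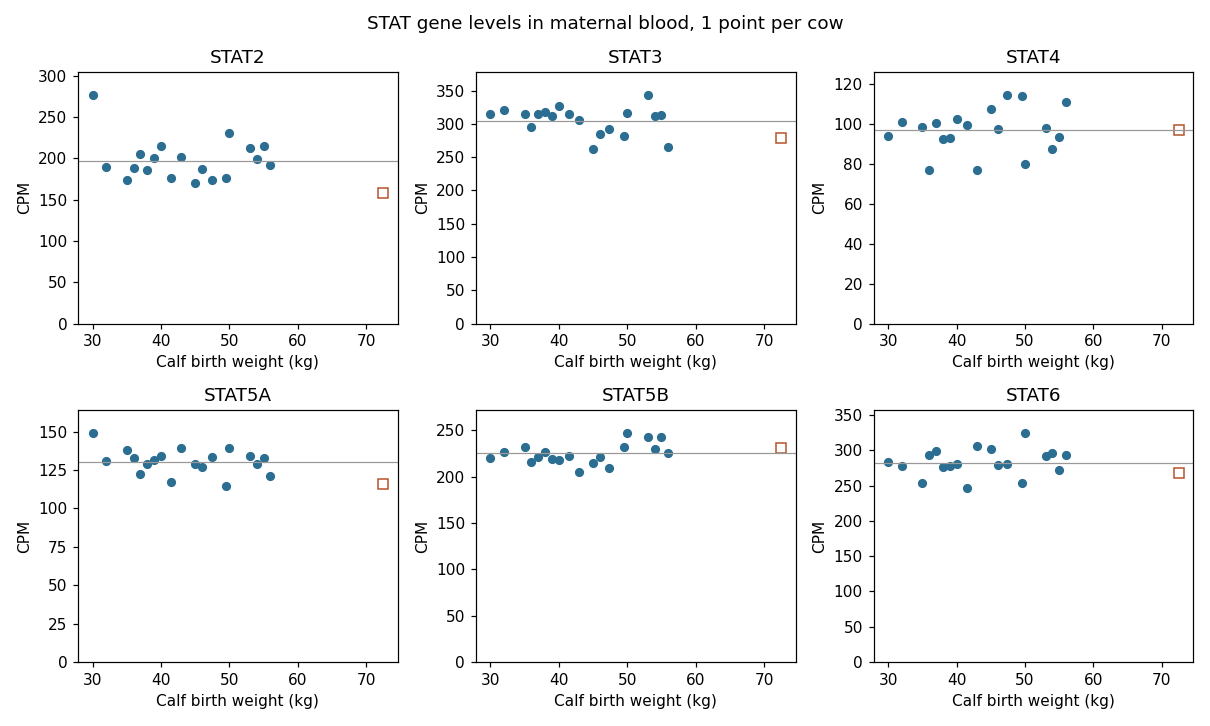
CPM of each STAT gene (vertical axes, starting at 0) against calf BW in kg (horizontal axes), with 1 point per cow, the mean of 20 cows as a grey line and the recipient of the 72.5 kg calf, left out of the slopes, as an open square. STAT5B stays between 205 and 247 CPM, whereas the recipient of the 30 kg calf lies above all others in STAT2 at 277 CPM.

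Across the 20 cows, STAT2 and STAT5A were the pair of STAT genes whose levels were correlated past the adjustment. Of the 15 pairs of STAT genes, 7 had a positive and 8 a negative Pearson correlation of log2 CPM, 5 had a permutation p below 0.05, and 1 had an adjusted p below 0.05 over the 15 pairs (Benjamini-Hochberg). That pair was STAT2 and STAT5A (R = 0.68, permutation p = 0.0011, adjusted p = 0.0165). By rank the relation was weaker (rho = 0.55, permutation p = 0.0132, adjusted p = 0.103), and no pair passed the adjustment by rank. Without the 2 cows farthest from the median of STAT2, the recipients of the 30 kg and 50 kg calves, R was 0.47 (permutation p = 0.051). The call was also lost with 1 cow left out, without the recipient of the 30 kg calf (R = 0.54, adjusted p = 0.0906) or that of the 72.5 kg calf (R = 0.62, adjusted p = 0.0802). The R of STAT2 with STAT5A exceeded that of STAT2 with 99.6% of the other genes tested.

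STAT2 with STAT3 (R = 0.52, permutation p = 0.0184, adjusted p = 0.126) and STAT3 with STAT5A (R = 0.47, permutation p = 0.0352, adjusted p = 0.126) had the next highest correlations. STAT4 had R = -0.46 with both STAT5A (permutation p = 0.0419) and STAT6 (permutation p = 0.0413), each with an adjusted p of 0.126, and none of these 4 pairs passed the adjustment. STAT4 had a negative R with each of the other 5 STAT genes, from -0.46 to -0.05, but none of these passed, and the sign changed with STAT5B and STAT2 once list scores were removed.

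STAT3, STAT5A and STAT5B lie next to each other on 1 chromosome, with 0 other protein-coding genes between STAT3 and STAT5A and 0 between STAT5A and STAT5B in the RefSeq gene order. The neighbours STAT5A and STAT5B had R = -0.10 (permutation p = 0.67, adjusted p = 0.838), and STAT3 and STAT5B had R = 0.30 (permutation p = 0.193, adjusted p = 0.289). STAT2 and STAT6 share another chromosome, with 23 protein-coding genes between them, and had R = 0.43 (permutation p = 0.0626, adjusted p = 0.134).

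**Figure D2:**
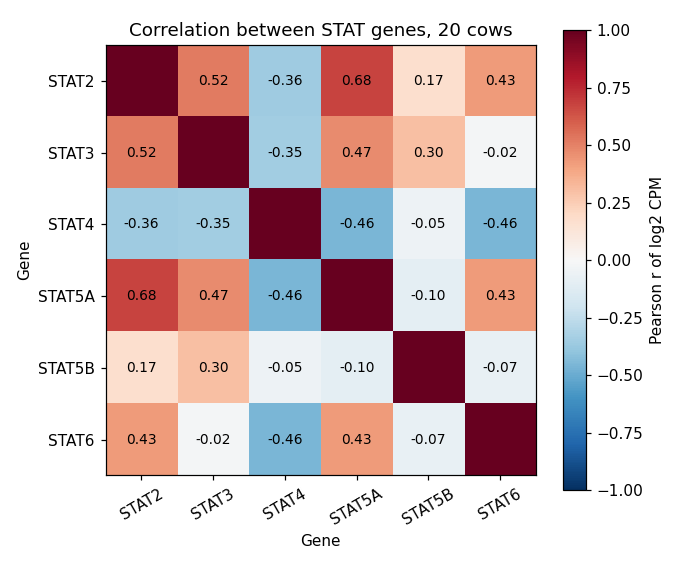
Pearson correlation of log2 CPM between each pair of STAT genes over 20 cows, in numbers and colour (red positive, blue negative). The highest value is 0.68 for STAT2 with STAT5A, and the row of STAT4 holds negative values only.

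Whole blood mixes cell types, so each STAT gene was compared with scores of marker genes, each score being the mean z-score of log2 CPM over the markers that passed the count filter. In such bulk samples, more cells of a type and more RNA per cell cannot be told apart. Of the 66 relations of 6 STAT genes with 10 marker lists and a list of interferon-stimulated genes, 19 had a permutation p below 0.05 and 6 passed the adjustment over the 66. By rank, 3 relations passed.

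STAT4 was higher in cows with more RNA of T cell markers (R = 0.76, permutation p = 0.00013, adjusted p = 0.00858). It is a gene known from T cells and natural killer cells. The rank correlation was 0.79, and without the 2 cows farthest from the median R was 0.79. All 12 T cell markers passed the count filter, summing to between 1070 and 1682 CPM per cow, with CD3E, a chain of the T cell receptor complex, at 220.3 CPM the one with most reads. With the natural killer and cytotoxic markers STAT4 had R = 0.38 (permutation p = 0.0954), and the T cell and natural killer scores were themselves correlated (R = 0.53). With the B cell, monocyte and erythroid scores STAT4 had R of -0.51, -0.53 and -0.55, none of which passed the adjustment.

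STAT3 was higher in cows with more RNA of neutrophil markers (R = 0.70, permutation p = 0.00058, adjusted p = 0.0175). The rank correlation was also 0.70 (adjusted p = 0.0251), and without the 2 farthest cows R was 0.75. At neutrophil scores above 0, STAT3 lay between 312 and 320.2 CPM in all cows but the recipient of the 53 kg calf (344 CPM), and its lower values were all at scores below 0. Of the 12 neutrophil markers, 11 passed the filter, FPR1 being the exception, and their sum lay between 3418 and 5348 CPM, with the calcium-binding protein gene S100A12 at 1178 CPM holding most reads. STAT3 also went with the erythroid score (R = 0.67, adjusted p = 0.0175, rank correlation 0.68). That relation was weaker without the recipient of the 45 kg calf (R = 0.57). The 7 erythroid markers past the filter had a median R of only 0.45 with their score, and GYPC, at 46.8 CPM, held most reads. With the monocyte score STAT3 had R = 0.65 (adjusted p = 0.0273). By rank the relation to the monocyte score did not pass (rho = 0.54, adjusted p = 0.124), and its R was 0.48 without the 2 farthest cows. These scores move together, with R = 0.55 between the neutrophil and erythroid and 0.58 between the neutrophil and monocyte scores. After the neutrophil score was removed from both sides, STAT3 had R = 0.49 with the erythroid score (permutation p = 0.0276) and 0.42 with the monocyte score (permutation p = 0.0644).

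STAT5B was related to the neutrophil score too (R = 0.64, adjusted p = 0.0275), but by rank the adjusted p was 0.11, and with CPM from total counts R fell to 0.49 (adjusted p = 0.151). STAT5A and STAT6 had no relation to a marker score that passed the adjustment. The highest R of STAT6 was 0.59, with the basophil score.

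STAT2 had the highest R with the score of interferon-stimulated genes (R = 0.75, permutation p = 0.00106, adjusted p = 0.0175). The interferon-stimulated score was 3.07 in the recipient of the 30 kg calf and 0.60 in the next highest, so 1 animal stood far from the other 19. Without the 2 cows farthest from the median R was 0.33 (permutation p = 0.174), and the rank correlation in all 20 was 0.59 (adjusted p = 0.0814). STAT5A had R = 0.55 with the same score (permutation p = 0.0102, adjusted p = 0.0741) and 0.30 without the recipient of the 30 kg calf. That cow also had the lowest total count, 24632077, and its part in the result was not tested. Over all cows, total count had R between -0.22 and 0.32 with the 6 STAT genes, with a lowest adjusted p of 0.871.

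**Figure D3:**
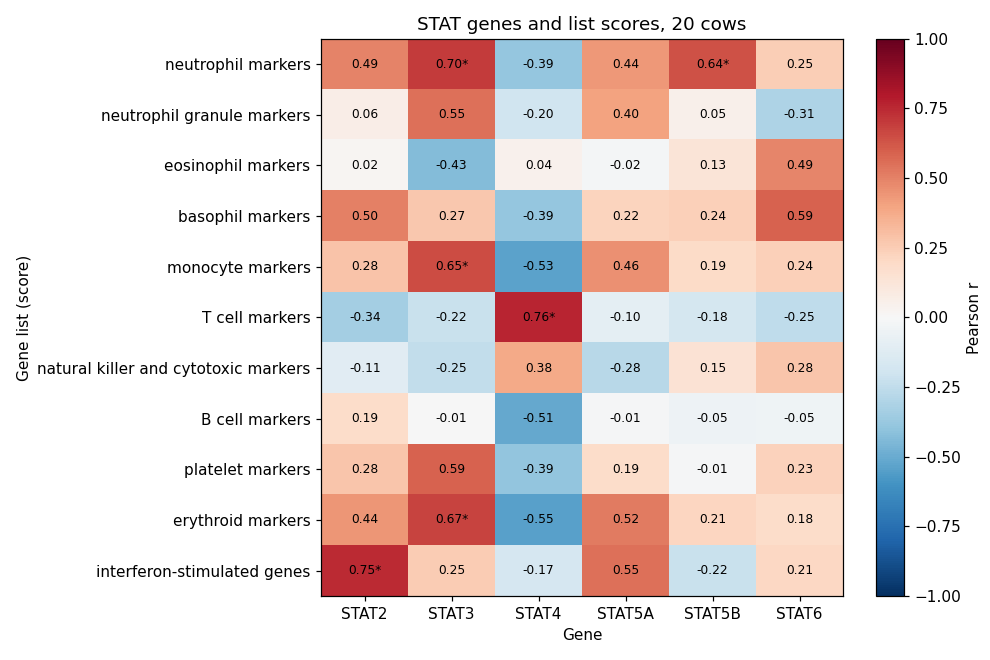
Pearson correlation over 20 cows between log2 CPM of each STAT gene (columns) and the score of each gene list (rows), in numbers and colour (red positive, blue negative), with a star where the adjusted p over the 66 relations is below 0.05. The 6 stars are at T cell markers for STAT4, neutrophil, monocyte and erythroid markers for STAT3, neutrophil markers for STAT5B and interferon-stimulated genes for STAT2.

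**Figure D4:**
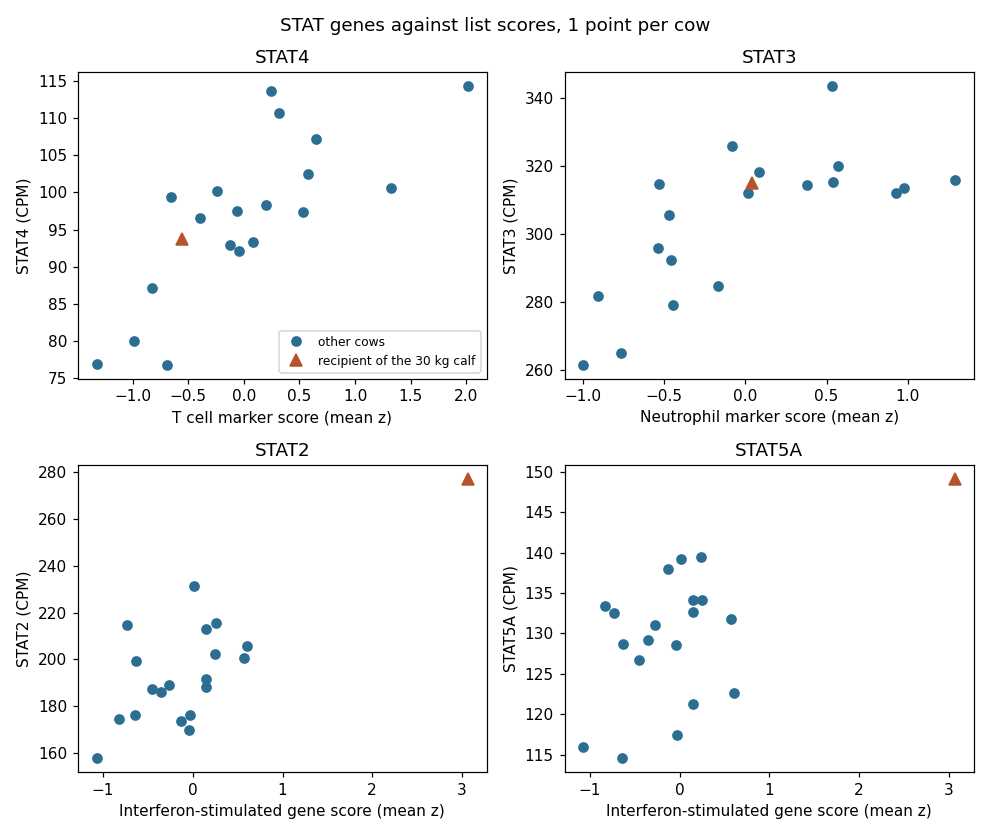
CPM of a STAT gene (vertical axes, not starting at 0) against the score of a gene list (horizontal axes, mean z-score), with 1 point per cow and the recipient of the 30 kg calf as a triangle. STAT4 is higher where the T cell score is higher, STAT3 has its lowest values at negative neutrophil scores and is level above 0 but for 1 cow at 344 CPM, and STAT2 and STAT5A have 1 cow at an interferon-stimulated score of 3.07 and all others at or below 0.60.

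The genes nearest to each STAT gene, by Pearson correlation of log2 CPM over the 20 cows, were different for every member. These are the extremes out of 16269 genes and are given as a description. For STAT4 they were SLC7A6, an amino acid transporter (R = 0.89), CCNE2, a cyclin (0.88), CD3G, a chain of the T cell receptor complex (0.87), RORA, a nuclear receptor of lymphocytes (0.85), and UTP15 (0.84). The same 5 genes remained nearest without the recipient of the 30 kg calf. The lowest were the Mediator subunit MED16 (-0.89) and the myosin MYO1C (-0.84).

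For STAT3 the nearest were BTG1, an inhibitor of proliferation (R = 0.89), PFKFB4, an enzyme that regulates glycolysis (0.86), the kinase PTK2B (0.84), C1RL (0.84) and FOSL2, a subunit of the AP-1 transcription factor (0.84). Those lowest were SV2B (-0.79) and TMEM39A (-0.78). Of the nearest 5, 3 remained without the recipient of the 30 kg calf and 2 with CPM from total counts.

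STAT6 had DDB1, a subunit of ubiquitin ligases and of DNA damage recognition, as its nearest gene (R = 0.91), followed by VPS9D1 (0.85), FLII (0.84), JUND, another AP-1 subunit (0.84), and E4F1 (0.83). VPS26A, a subunit of the retromer that sorts membrane proteins (-0.86), and ZDHHC21 (-0.82) were lowest. STAT5B had OR56B42, an olfactory receptor gene with only 0.29 CPM (R = 0.79), GANC (0.79), ABHD2 (0.78), HERC1 (0.78) and APH1B (0.76), and at the other end MTERF2 (-0.80) and DFFA (-0.79). For both genes 4 of the 5 nearest remained without the recipient of the 30 kg calf, but with CPM from total counts 3 remained for STAT6 and 1 for STAT5B.

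STAT2 and STAT5A were different in this respect, since 0 of their 5 nearest genes remained without the recipient of the 30 kg calf. With all 20 cows, STAT2 had UBA7, the enzyme that activates the ubiquitin-like protein ISG15 (R = 0.84), PRPSAP1 (0.83), the inflammatory caspase CASP4 (0.83), XAF1 (0.81) and ZNFX1 (0.80), of which UBA7 and XAF1 are on the interferon-stimulated list. At the other end were RRH, with 0.34 CPM, and TMEM263, at -0.82 each. STAT5A had GRINA (0.88), GGA3 (0.87), LGALS3BP (0.87), the interferon-stimulated gene IFI35 (0.86) and MYBBP1A (0.86), and at the other end UBA3, part of the enzyme that activates NEDD8 (-0.87), and MTF2 (-0.85).

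Each STAT gene was then set against the receptors, kinases, inhibitors and target genes listed for it. Of 251 such relations, 74 had a permutation p below 0.05, and 41 passed the adjustment over the 251, of which 38 were positive. By rank, 3 passed, 1 each for STAT3, STAT5B and STAT6 and 0 for STAT2, STAT4 and STAT5A. The 41 were 23 for STAT2, 10 for STAT3, 4 for STAT4, 2 for STAT6 and 1 each for STAT5A and STAT5B. Without the recipient of the 30 kg calf 18 relations passed, 16 of them among the 41. All 10 relations of STAT3 were among these 16, against 2 of the 23 of STAT2.

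The lowest absolute R that passed was 0.62, and many genes outside the pathway were as close to a STAT gene. Of all other genes, 1.48% reached that R with STAT2, 2.61% with STAT3, 4.19% with STAT4, 5.91% with STAT5A, 1.32% with STAT5B and 5.16% with STAT6. Among pathway relations the share that passed was 37.1% for STAT2, 23.8% for STAT3, 12.1% for STAT4, 2.38% for STAT5A, 2.38% for STAT5B and 6.67% for STAT6. The shares of STAT5A, STAT5B and STAT6 rest on 1 or 2 relations each and are near or below those of all genes.

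Of the 7 genes tested from the receptor list of STAT3, 3 passed, and 6 had a positive R, beside 46.9% of all genes. For CSF3R, the receptor of granulocyte colony-stimulating factor, R was 0.83 (adjusted p = 0.00502; rho = 0.75, adjusted p = 0.0243). IL10RA, a chain of the interleukin 10 receptor, had R = 0.71 (adjusted p = 0.0102), and IL6R, the interleukin 6 receptor, had R = 0.70 (adjusted p = 0.0106). IL6ST, the gp130 chain that IL6R needs to signal, had R = 0.021 (adjusted p = 0.966). IL22RA2, IL21R and LIFR had R of 0.47, 0.43 and -0.29, with adjusted p-values of 0.127, 0.184 and 0.43. Among its target genes, BCL3, a regulator of NF-kappaB, had R = 0.72 (adjusted p = 0.00853), and SOCS3, the feedback inhibitor of this pathway, had R = 0.70 (adjusted p = 0.0106). BCL6, CEBPD, CEBPB, JUNB and FOS, all genes of transcription factors, passed as well. By rank, CSF3R was the only gene whose relation to STAT3 passed. Of the 14 target genes tested, 11 had a positive R with STAT3 and the median was 0.53, beside a median of -0.02 over all genes. At the other end, VEGFA, a growth factor of blood vessels, had R = -0.40 (permutation p = 0.0771, adjusted p = 0.217). CSF3R, IL6R and several of the target genes are themselves abundant in myeloid cells, and the part of the neutrophil score in these relations was not tested.

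For STAT2, all 33 interferon-stimulated genes tested had a positive R, with a median of 0.65 beside -0.0044 over all genes, and 20 of them passed. IRF9, the DNA-binding partner of STAT2, had R = 0.77 (adjusted p = 0.00669) and 0.59 without the recipient of the 30 kg calf (adjusted p = 0.0816). UBA7 (R = 0.84 in 20 cows and 0.68 without that cow, adjusted p = 0.0289) and XAF1 (0.81 and 0.64, adjusted p = 0.0436) were the 2 that passed either way. By rank neither passed (adjusted p = 0.0537 for UBA7 and 0.0586 for XAF1). ISG15 had R = 0.72 in all cows (adjusted p = 0.0164) and 0.44 without that cow (adjusted p = 0.229). The list of 6 interferon receptor genes and IRF9 had a median R of 0.23 with STAT2. Of the receptor genes, IFNGR2, a chain of the interferon gamma receptor, had R = 0.51 in all cows (adjusted p = 0.0852) and 0.68 without that cow (adjusted p = 0.029), and IFNAR1, a chain of the type I receptor, had 0.44 (adjusted p = 0.174) and 0.57 (adjusted p = 0.0904).

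For STAT4, the receptor chains of interleukin 12, interleukin 23 and interleukin 18 had positive R in 5 of 5 genes, with a median of 0.37, beside 50.7% positive and a median of 0.0059 over all genes, and none passed. The closest was IL18R1 (R = 0.58, permutation p = 0.00839, adjusted p = 0.0501). The 4 relations that passed were with SOCS4 (R = 0.72, adjusted p = 0.00847) and PIAS2 (0.63, adjusted p = 0.025), both named for inhibitor families, and with the protease FURIN (-0.65, adjusted p = 0.018) and the phosphatase PTPN6 (-0.62, adjusted p = 0.0258). Without the recipient of the 30 kg calf the adjusted p was 0.0527 for PIAS2 and 0.0564 for PTPN6. None of the 4 passed by rank. Of the 9 STAT4 target genes, 6 had a positive R and the median was 0.075. IFNG, the interferon gamma gene, had R = 0.44 (adjusted p = 0.171), PRF1, the perforin of cytotoxic cells, 0.43 (adjusted p = 0.184), and TBX21, the transcription factor of type 1 T helper cells, -0.23 (adjusted p = 0.538).

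STAT5A and STAT5B each had 1 pathway relation that passed. STAT5A had R = 0.62 with IL2RG, the common gamma chain of the interleukin 2 receptor family (adjusted p = 0.0286), which did not pass by rank (adjusted p = 0.153) or without the recipient of the 30 kg calf (R = 0.52, adjusted p = 0.151). With the kinase JAK2 STAT5A had R = -0.36 (permutation p = 0.123, adjusted p = 0.289). STAT5B had R = 0.68 with JAK2, the kinase of the growth hormone, prolactin and erythropoietin receptors (adjusted p = 0.0125; rho = 0.76, adjusted p = 0.0176). That relation also passed without the recipient of the 30 kg calf (R = 0.67, adjusted p = 0.0326). The difference between the values of R of the STAT5 genes was not tested. With CISH, a textbook STAT5 target, STAT5A had R = 0.40 (permutation p = 0.0759) and STAT5B had R = 0.14 (permutation p = 0.566), and neither passed the adjustment.

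STAT6 had its highest relation among inhibitors with PIAS2, at R = -0.78 (adjusted p = 0.00502) and rho = -0.83 (adjusted p = 0.00502). With CISH it had R = 0.62 (adjusted p = 0.0258, or 0.0542 without the recipient of the 30 kg calf), which did not pass by rank (adjusted p = 0.153). PIAS2 thus had opposite signs with STAT6 and STAT4, which themselves had R = -0.46. Of its 2 receptor genes, the interleukin 4 receptor chain IL4R had R = 0.48 (permutation p = 0.0304, adjusted p = 0.119) and IL13RA1 had -0.15 (adjusted p = 0.739). Of 8 target genes, 7 had a positive R and the median was 0.22, beside 47.7% positive over all genes, and none passed. FCER2, a low-affinity IgE receptor of B cells and a STAT6 target, had R = 0.50 (permutation p = 0.0256, adjusted p = 0.107), and ARG1, the arginase gene and the target with the opposite sign, had -0.47 (permutation p = 0.0381, adjusted p = 0.137).

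The comparison asks whether maternal blood at day 63 reflects the BW of the calf, and for the STAT genes no association was detected. The heaviest calf was left out of the model, as it was by the study. Slopes are changes of log2 expression per kg of BW from an edgeR quasi-likelihood fit over 16206 genes in 19 cows, leaving out the recipient of the 72.5 kg calf. Of the 6 STAT genes, 3 had a positive and 3 a negative slope, and 0 had an unadjusted p below 0.05. Over all genes, 13.9% had an unadjusted p below 0.05, 53.4% had a negative slope, and 0% had a false discovery rate (FDR, Benjamini-Hochberg) below 0.05 with edgeR, whereas DESeq2 called 1.22% of the 15478 genes to which it gave an adjusted p, and 0 of the 6.

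STAT5A had the smallest p, with a slope of -0.0043 ± 0.0027 (SE) per kg (edgeR p = 0.13, FDR = 0.517). This amounts to 0.926-fold over the 26 kg between the 30 kg and 56 kg calves, with a 95% interval of 0.837 to 1.03. With all 20 cows its p was 0.0363 (edgeR FDR = 0.336), and without the recipient of the 30 kg calf its slope was -0.0021 (edgeR p = 0.466, FDR = 0.802). STAT5B had a slope of 0.0031 ± 0.0023 (edgeR p = 0.177, FDR = 0.576), or 1.06-fold over that span (0.973 to 1.15). The STAT5 genes thus had slopes of opposite sign, and neither was distinguishable from 0.

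STAT3 had a slope of -0.0037 ± 0.0031 (edgeR p = 0.233, FDR = 0.636), or 0.935-fold over 26 kg (0.834 to 1.05). STAT2 had -0.0036 ± 0.0049 (edgeR p = 0.469, FDR = 0.798), or 0.937-fold (0.781 to 1.13), and without the recipient of the 30 kg calf its slope was 0.0042, of the other sign. STAT6 had 0.0020 ± 0.0029 (edgeR p = 0.502, FDR = 0.815), or 1.04-fold (0.929 to 1.16). With all 20 cows the slope of STAT6 was 0.00043 (edgeR p = 0.853, FDR = 0.959), and without the recipient of the 50 kg calf it was 0.00079. STAT4 had 0.0028 ± 0.0048 (edgeR p = 0.562, FDR = 0.843), or 1.05-fold (0.880 to 1.26). The intervals leave out changes beyond about these bounds over the range of BW, but they do not show that the levels are unrelated to BW.

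**Figure D5:**
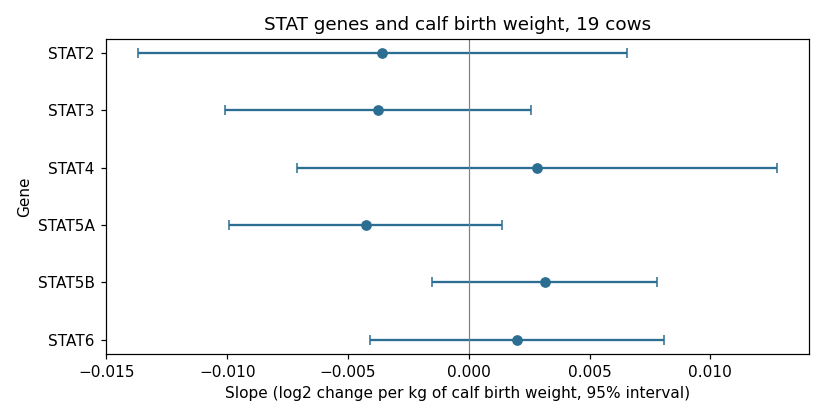
Slope of each STAT gene on calf BW (horizontal axis, log2 change per kg) in 19 cows, with points for the edgeR estimates and bars for 95% intervals. All 6 intervals include 0, and those of STAT2 and STAT4, the most variable members, are the widest.

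The other genes of the pathway were read from the same fit. Of 132 such genes, 120 were tested and 36 (30.0%) had an unadjusted p below 0.05, beside 13.9% of all genes. Of the 36, 10 were higher and 26 lower with heavier calves, beside 6.78% higher and 7.08% lower among all genes. The list of interferon-stimulated genes, with 33 tested, held 24 of the 26 lower ones. Outside that list 87 genes were tested, and 10 were higher and 2 lower. The share of these 87 with such a p, in either direction, was about that of all genes. None of the 120 had an edgeR FDR below 0.05. The lists were written with earlier results of these data known, so their direction is no independent evidence.

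Markers of blood cell types were read from the same fit. With the neutrophil score as a covariate, 25 interferon-stimulated genes were lower at an unadjusted p below 0.05, and with the T cell score 24, beside 24 without a covariate. Outside the interferon list, where 87 genes were tested, 10 were higher with either covariate, as without one. There 7 were lower with the neutrophil and 5 with the T cell score, beside 2. Over all 16206 genes, 1138 were higher and 1294 lower with the neutrophil score, and 1123 and 1263 with the T cell score. Without a covariate these numbers were 1099 and 1148. The part of the other marker lists in the slopes of the pathway genes was not tested. All 6 neutrophil granule markers tested, genes of granule proteins, had negative slopes, beside 53.4% of all genes, with a median of -0.049. LTF, the lactoferrin gene, had a slope of -0.20 ± 0.045 (edgeR p = 0.000221, FDR = 0.0976; DESeq2 FDR = 0.00752) and PGLYRP1, at only 0.82 CPM, had -0.16 ± 0.039 (edgeR p = 0.000563, FDR = 0.109; DESeq2 FDR = 0.00926), while the other 4 did not pass. Among all genes, 7.08% were lower at an unadjusted p below 0.05. Each of the 6 was highest in the recipient of the 35 kg calf, where LTF had 48.5 CPM beside a mean of 4.05 over the cows. The part of that cow in these slopes was not tested. At an unadjusted p below 0.05, PADI4 of 11 neutrophil markers, IL5RA of 2 eosinophil markers, CD300E of 9 monocyte markers, NCR1 and CD244 of 9 natural killer and cytotoxic markers and ITGA2B of 9 platelet markers were higher with heavier calves. Among all genes, 6.78% were higher at that p. CD300E went against its list, in which 8 markers had negative slopes and the median was -0.0088. Of the neutrophil markers, 5 had a positive and 6 a negative slope. Slopes were positive in 2 eosinophil, 8 natural killer and cytotoxic and 7 platelet markers, and negative in 0, 1 and 2, beside 53.4% negative over all genes. None of the T cell, B cell, basophil or erythroid markers had an unadjusted p below 0.05, beside 13.9% of all genes. Of all these markers, 0 had an edgeR FDR below 0.05. DESeq2 gave CD300E an FDR of 0.0428, and LTF and PGLYRP1 were the only other markers with one below 0.05.

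Upstream of the STATs, 2 of the 4 JAK genes were higher with heavier calves at an unadjusted p below 0.05, beside 6.78% of all genes. TYK2, a kinase of the interferon and interleukin 12 receptors, had a slope of 0.011 ± 0.0031 (edgeR p = 0.00274, FDR = 0.17), from 175 CPM in the recipient of the 41.5 kg calf to 245 in that of the 56 kg calf. JAK1 had a slope of 0.0058 ± 0.0023 (edgeR p = 0.0182, FDR = 0.256). JAK2 (edgeR p = 0.0836) and JAK3 (edgeR p = 0.781) did not pass.

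Of the 12 receptor genes of the common gamma, common beta and STAT5 list that were tested, 3 had an unadjusted p below 0.05, all with positive slopes. Among all genes, 6.78% were higher at that p. CSF2RB, the common beta chain shared by the receptors of interleukin 3, interleukin 5 and GM-CSF, had a slope of 0.025 ± 0.0073 (edgeR p = 0.00219, FDR = 0.158; DESeq2 FDR = 0.0448). IL5RA, the interleukin 5 receptor chain of eosinophils, had 0.053 ± 0.019 (edgeR p = 0.0102, FDR = 0.216), and IL9R had 0.031 ± 0.013 (edgeR p = 0.0234, FDR = 0.275). IL5RA is also 1 of only 2 of the 8 eosinophil markers that passed the count filter, and their summed level ran from 25.3 to 226.5 CPM between cows; the part of eosinophil number in these slopes was not tested. IL18R1 (0.020 ± 0.0071, edgeR p = 0.0116) and LIFR, at only 0.80 CPM (0.053 ± 0.017, edgeR p = 0.0061), were higher with heavier calves as well, and IL21R, a receptor of lymphocytes, was lower (-0.017 ± 0.0063, edgeR p = 0.0143). Their edgeR FDRs were 0.224, 0.193 and 0.243.

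Among target genes outside the interferon list, VEGFA had a slope of 0.038 ± 0.0100 (edgeR p = 0.00117, FDR = 0.129; DESeq2 FDR = 0.0269), with 15.96 CPM in the recipient of the 35 kg calf and 52.6 in that of the 56 kg calf. SOCS2, a STAT5 target that dampens growth hormone signals, had 0.049 ± 0.016 (edgeR p = 0.0065, FDR = 0.196), from 5.52 CPM in the recipient of the 35 kg calf to 29.1 in that of the 56 kg calf. PIM1, a survival kinase induced through STAT3 and STAT5, had 0.016 ± 0.0071 (edgeR p = 0.0313, FDR = 0.302). Of the 10 genes higher with heavier calves, 6 (VEGFA, SOCS2, PIM1, TYK2, IL5RA and IL9R) were each highest in the recipient of the 56 kg calf. That cow had the heaviest calf in the fit, so choosing genes by a positive slope favours it, and the count is only a description. Without that cow, 6 genes outside the interferon list were higher at an unadjusted p below 0.05, of 87 tested. Calls over all genes fell as well, from 1099 of 16206 higher at that p to 713 of 16159.

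The 33 interferon-stimulated genes tested all had negative slopes, and 24 had an unadjusted p below 0.05, beside 7.08% of all genes lower at that p. The median slope was -0.029, beside -0.00072 over all genes, and DESeq2 gave 9 of them an FDR below 0.05. IFI27 had the smallest p, with a slope of -0.076 ± 0.015 (edgeR p = 7.27e-05, FDR = 0.0976; DESeq2 FDR = 0.00766). USP18, which removes ISG15 and inhibits the interferon receptor, had -0.029 ± 0.010 (edgeR p = 0.00861, FDR = 0.208). STAT2 and IRF9, which act together on these genes, did not pass, IRF9 having a slope of -0.0089 ± 0.0046 (edgeR p = 0.0648, FDR = 0.401). Without the recipient of the 30 kg calf, the 24 genes became 10, 28 of the 33 slopes were negative and the median slope was -0.0072.

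The pathway genes with most reads in their lists had no detected relation to BW. Apart from JAK1, which reached an unadjusted p below 0.05 but no FDR below 0.05 in edgeR or DESeq2 (0.256 and 0.171), these were IFNAR1 among interferon receptors (388.5 CPM, edgeR p = 0.772), CSF3R (1816 CPM, edgeR p = 0.852), IL12RB1 (45.9 CPM, edgeR p = 0.688), IL7R (276.5 CPM, edgeR p = 0.542) and IL13RA1 (177 CPM, edgeR p = 0.71) among the other receptors. The same held for the phosphatase gene PTPRC, also known as CD45 (4767 CPM, edgeR p = 0.176), and among target genes for SAMD9 (1041 CPM, edgeR p = 0.128), MCL1 (733 CPM, edgeR p = 0.515), IKZF1 (514 CPM, edgeR p = 0.124), CCND3 (288 CPM, edgeR p = 0.109) and FCER2 (143 CPM, edgeR p = 0.605).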

How the data were processed

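Of the STAT family, 6 genes were analysed here; the members, gene lists and tests were chosen with earlier results of these data known. Per the labels and the paper, read trimming used Trimmomatic, alignment to the cattle genome STAR 2.7.0b, and counting featureCounts (Subread 2.0.3). The authors deposited raw counts per Entrez gene, without normalization. The labels name a SMARTer Stranded kit and the paper a Truseq-stranded mRNA kit; the strand setting and the treatment of reads that match several genes are not given in the sources used here. Symbols came from the RefSeq gene table of ARS-UCD2.0, which holds all 37063 identifiers; no coordinates are given, because the authors used another build. No library repeated another, the lowest chi-square over degrees of freedom among 190 pairs being 12.6. No sequencing batch is named in the labels.

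Genes that reached 10 counts in 5 or more cows were fitted with edgeR 4.0.16 (R 4.3.3; TMM, quasi-likelihood test) on calf BW in 19 cows, with Benjamini-Hochberg adjustment over 16206 genes. Correlations used log2 CPM with a prior count of 1 in 20 cows and two-sided permutation tests with 100000 resamples (Python 3.11.15, scipy 1.17.1). The alternatives were DESeq2 1.42.0, limma 3.58.1 with voom, all 20 cows, other normalizations, no count minimum, the rank of BW, library size as a covariate, list scores as covariates or removed, and leaving out each cow. Counts of pathway genes under these settings were not planned. Pathway correlations, nearest genes and partial correlations with changed cows or scores were added after seeing the data. The fits were tested on simulated counts, in which a larger share of the calls of DESeq2 than of edgeR was false. The share was above the FDR threshold of 0.05 for both. These counts were drawn independently for each gene with dispersions estimated by edgeR, so they do not rank the tools on the real data. Genes named are the STAT genes, the 5 with the highest and 2 with the lowest R for each, pathway genes with an unadjusted p below 0.05 or a DESeq2 FDR below 0.05, and the gene with most reads in each list; pathway genes named for a correlation, marker genes, IRF9, JAK2, JAK3 and other members of short lists were named after their values were seen.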

Additional observations from a re-analysis of the deposited data

How the results depend on the processing

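The slopes of STAT3, STAT4, STAT5A, STAT5B and STAT6 kept their sign in every setting run, with ranges over cows left out of -0.0058 to -0.0016, 0.00075 to 0.0047, -0.0050 to -0.0021, 0.0024 to 0.0038 and 0.00079 to 0.0036 log2 per kg. That of STAT2 ran from -0.0052 to 0.0042, positive when the recipient of the 30 kg calf was left out, and was 0.0080 with the interferon score as a covariate (edgeR p = 0.0545, FDR = 0.427). The number of genes with an FDR below 0.05 was 189 with DESeq2, 4 with all 20 cows, 147 with every gene of any count, 1 with library size as a covariate and 0 to 34 with 1 cow left out (34 without the recipient of the 32 kg calf), beside 0 with edgeR, where 2247 genes had an unadjusted p below 0.05. The cause of these shifts was not tested. Among pairs, STAT4 and STAT5B had R = 0.059 with CPM from total counts and 0.51 after removal of the neutrophil and T cell scores, when STAT2 and STAT4 had 0.015, STAT2 and STAT5B -0.25, and STAT3 and STAT5B -0.27; STAT5A and STAT5B had 0.027 after removal of the interferon score. With 1 cow left out, the sign changed for STAT3 and STAT6 (-0.13 to 0.12), STAT4 and STAT5B (-0.32 to 0.15), STAT5A and STAT5B (-0.25 to 0.015) and STAT5B and STAT6 (-0.39 to 0.062). The R of STAT2 and STAT5A was 0.62 in 19 cows (adjusted p = 0.0802) and 0.54 to 0.76 with 1 cow left out, lowest without the recipient of the 30 kg calf. STAT4 with the T cell score had 0.71 to 0.79, STAT3 with the neutrophil score 0.64 to 0.74, and STAT2 with the interferon score 0.48 (without the recipient of the 30 kg calf) to 0.82. The interferon-stimulated genes lower at an unadjusted p below 0.05 numbered 10 to 28 with 1 cow left out. The 2 other pathway genes lower became 7 with the neutrophil score, 6 with all 20 cows, 5 with limma or the T cell score and 1 to 5 with 1 cow left out (5 without the recipient of the 32 kg calf). No paired analysis was possible because all cows formed 1 group.

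RNA level in whole blood at 1 time point does not show STAT protein or its phosphorylation. Cell counts were not used here, so marker scores stand in for them.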
